A study of Mus musculus with 30 samples.

Results

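The 10 genes described here are a core set of the TGF-beta pathway: the ligand gene Tgfb1, the receptor genes Tgfbr1 and Tgfbr2, the SMAD genes Smad1, Smad2, Smad3, Smad4, Smad5 and Smad7, and the co-repressor gene Ski. They were listed by name, 10 of the 19937 genes measured, and the list was drawn up because Smad3 was lower in IgE than in IgG1 plasma cells of these same samples. Each member had 1 probe set of its own, and all 10 passed the filter on low values in both experiments. The difference between IgE and IgG1 plasma cells is therefore given as values with no test, as is Smad3 in every comparison that uses plasma cells.

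TGF-beta is secreted in a latent form and, once released, binds the type II receptor TGFBR2, which recruits and phosphorylates the type I receptor TGFBR1. TGFBR1 phosphorylates SMAD2 and SMAD3, which join SMAD4 and enter the nucleus. The related BMP ligands act through SMAD1 and SMAD5 with the same partner SMAD4, while SMAD7 blocks the activated receptor and SKI represses SMAD target genes. In B cells, TGF-beta is known for restraining proliferation and for directing class switching to IgA.

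All cells came from mesenteric lymph nodes of CeGFP BALB/c mice at day 10 of infection with the intestinal worm Nippostrongylus brasiliensis, and each array held a pool of 3 mice from its own sort. CeGFP mice carry an IRES-GFP knock-in cassette behind the membrane IgE sequence. GFP thus marks IgE cells, and also IgG1 cells that rearranged to Cepsilon on the heavy chain chromosome that makes no antibody. The first experiment (18 arrays) held GFP-negative IgG1 germinal centre (GC) cells (n = 3), GFP-positive IgG1 GC cells (n = 3), IgE GC cells (n = 3), GFP-positive IgG1 plasma cells (PC, n = 2), IgE PC (n = 4) and naive B cells (n = 3). The second (12 arrays) held dark zone (DZ) and light zone (LZ) cells of the IgG1 germinal centre, with GFP or without it (n = 3 for each of the 4 groups). The GC gate was B220+CD95+CD138-, with PC taken as CD95+CD138+, naive cells as B220+CD95-CD138-IgG1-IgE-, DZ cells as CXCR4highCD86low and LZ cells as CXCR4lowCD86high. All mice were infected, all carried the cassette, their age and sex are not given in the sources used here, and there was no GFP-negative plasma cell group.

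Values are log2 signals, so a difference of 1 is a doubling. They were compared within an experiment and within a gene, never between genes, whose probes differ. Pax5 and Prdm1 went with the sort labels in the first experiment. Pax5, the B cell identity factor, lay at 11.09 to 11.35 in the GC and naive groups and at 6.09 to 6.43 in PC. Prdm1, the plasma cell factor, lay at 9.59 to 9.87 in PC and at 4.84 to 5.53 elsewhere. The plasma cell groups were not alike in every marker. In IgG1 PC and IgE PC, the plasma cell marker Tnfrsf17 was at 6.76 (SD 1.21) and 9.58, and the naive B cell marker Fcer2a at 6.68 and 9.22. The GC markers Gcsam and Mybl1 were at 5.86 and 8.35 and at 5.07 and 6.42. Xbp1 (11.59 and 11.26), Irf4 (10.83 and 10.92) and Jchain (12.51 and 12.68) lay closer. Arrays of a group correlated at 0.936 to 0.989. In naive replicate 1 the mean correlation with the arrays of its own group was lowest, at 0.936, and GFP-positive IgG1 GC replicate 3 was the lowest GC array, at 0.975. Naive replicate 1 and GFP-positive IgG1 GC replicate 3 are referred to as the arrays that stood apart. The name is a label and not a finding, since a check for outlying arrays flagged 0 of the 10 groups. Naive replicates 2 and 3 (0.949) and both IgG1 PC arrays (0.962) also had lower mean correlations than the GC array so named. A gene is called when its adjusted p is under 0.05 (limma, Benjamini-Hochberg over all genes tested).

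**Figure D1:**
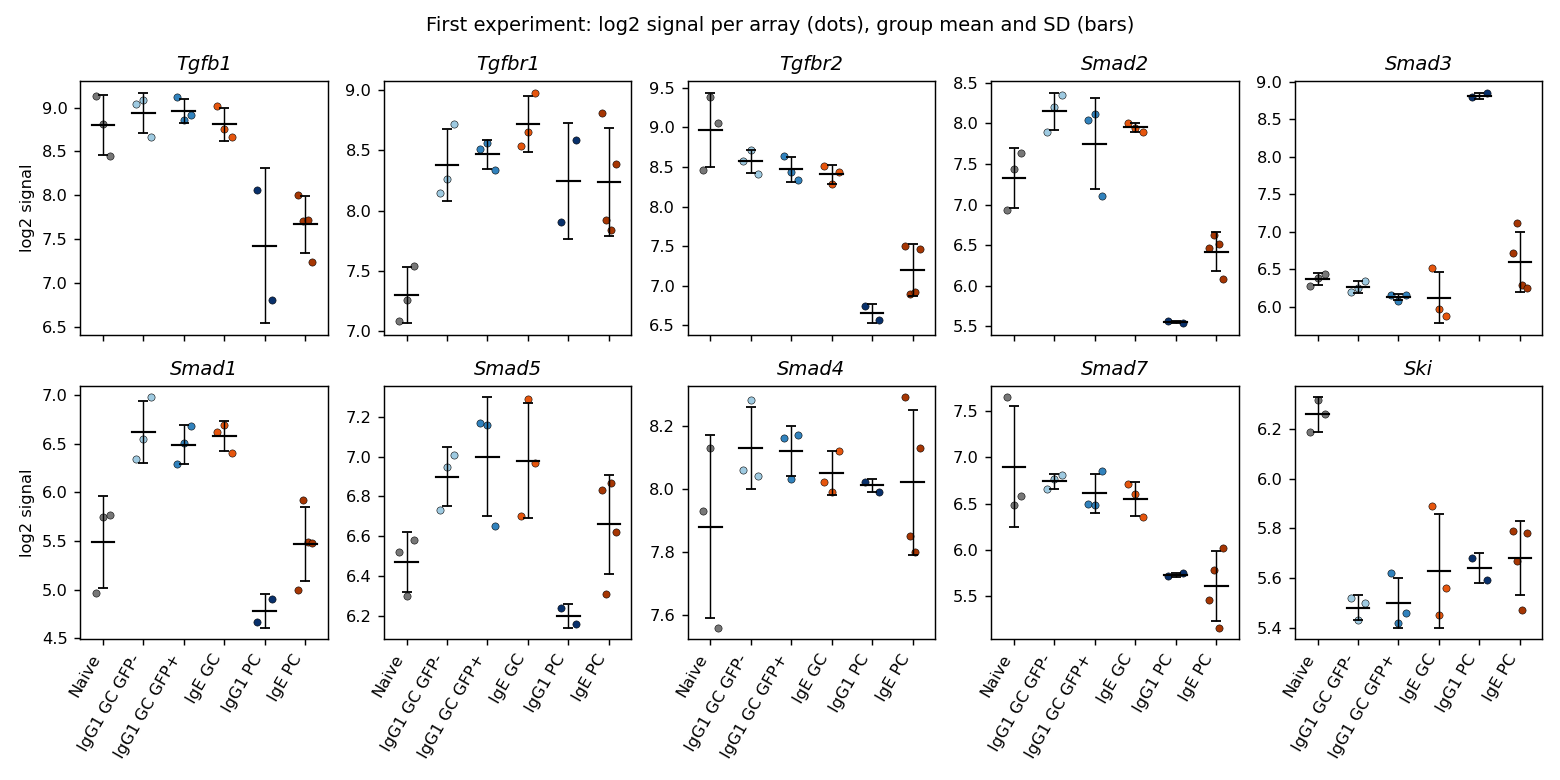
Log2 signal (vertical axis) of each member in the 6 groups of the first experiment (horizontal axis), with 1 dot per array, the group mean as a line and the SD as bars; GC, germinal centre; PC, plasma cells. Smad3 stands at 8.80 and 8.85 in IgG1 PC and at no more than 7.11 on any other array, while Smad2 and Tgfbr2 are lowest in PC and Tgfbr1 and Ski set naive cells apart.

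The plasma cell groups were first set side by side, since Smad3 in them gave rise to the list. Smad3, which carries the TGF-beta signal with SMAD4, was at 8.80 and 8.85 on the IgG1 PC arrays and at 6.71, 7.11, 6.29 and 6.25 on the IgE PC arrays. The IgE PC mean was lower by a log2 difference of -2.23 (SE 0.22), a 4.70-fold difference in signal, and it lay between -2.41 and -2.07 under the alternative settings tried. No IgE PC array came near an IgG1 PC array. Since Smad3 on these same arrays chose the list, its range and its separation are descriptions and lend the difference no support.

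No other member had a difference of that size between the plasma cell groups. Smad2, the partner receptor SMAD, ran the other way and was higher in IgE PC by 0.87 (SE 0.26). Smad1 (0.69), Tgfbr2 (0.54) and Smad5 (0.46) were also higher in IgE PC in the mean. Their arrays did not overlap, but the gaps were small. The highest IgG1 PC and lowest IgE PC arrays were at 4.90 and 5.00 for Smad1, 6.74 and 6.90 for Tgfbr2, and 6.24 and 6.31 for Smad5. How many of all genes do not overlap between these groups was not counted, so the lack of overlap is no result. Tgfb1 (0.24), Ski (0.04), Smad4 (0.01), Tgfbr1 (-0.01) and Smad7 (-0.13) overlapped between the plasma cell groups. Leaving out 1 array moved Tgfb1 to between -0.39 and 0.86 and Tgfbr1 to between -0.35 and 0.33. These values describe 2 arrays against 4.

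Outside IgG1 PC, Smad3 lay between 5.88 (IgE GC) and 7.11 (IgE PC) on the arrays of the first experiment. It was at 6.28, 6.38 and 6.44 in naive cells, at 6.19, 6.25 and 6.34 in GFP-negative IgG1 GC cells, at 6.16, 6.08 and 6.15 in GFP-positive IgG1 GC cells and at 6.51, 5.97 and 5.88 in IgE GC cells. In the order of group means, IgG1 PC (8.82 ± 0.04, SD, n = 2) stood apart from IgE PC (6.59 ± 0.40, n = 4). IgE PC in turn overlapped naive cells (6.37 ± 0.08, n = 3), and below those came the GFP-negative IgG1 (6.26 ± 0.08, n = 3), GFP-positive IgG1 (6.13 ± 0.04, n = 3) and IgE GC cells (6.12 ± 0.34, n = 3). Among these neighbours only the 2 IgG1 GC groups did not overlap, by less than 0.1. Smad3 was therefore high in a single group of the 6.

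Against the GC cells of the same isotype, Smad3 was higher in IgG1 PC by 2.69 (SE 0.23), a 6.46-fold difference, and in IgE PC by 0.47 (SE 0.20), with overlapping arrays in the latter case. Both values use the plasma cell arrays that chose the list and are descriptions.

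In GC cells, Tgfbr1 and Smad1 were higher than in naive cells and Ski was lower, in all 3 GC groups. These comparisons ask which genes change as B cells enter the germinal centre; they share the 3 naive arrays, so they are not separate evidence. In IgE GC cells, 3 of the 10 members were called, 2 higher and 1 lower, beside 26.7% of the 12098 genes tested (19.3% higher, 7.40% lower). In GFP-positive IgG1 GC cells 3 were called, 2 higher and 1 lower, beside 23.3% of genes (16.8% higher, 6.43% lower). In GFP-negative IgG1 GC cells 4 were called, 3 higher and 1 lower, beside 29.8% of genes (20.5% higher, 9.35% lower). The counts of members called are near what these shares give for any 10 genes. After a further quantile normalization, the share of calls that were higher in IgE GC cells went from 72.3% to 62.3%.

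Tgfb1, the ligand, was not called in GC cells against naive cells, at 9.13, 8.81 and 8.45 in naive cells and at 8.66 to 9.12 over the 9 GC arrays. Its differences were 0.02 in IgE (95% interval -0.56 to 0.60), 0.16 in GFP-positive IgG1 and 0.14 in GFP-negative IgG1 GC cells, and their sign turned with quantile normalization.

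Tgfbr1, the signalling type I receptor, was at 7.09, 7.26 and 7.54 on the naive arrays. It was at 8.54, 8.65 and 8.98 in IgE GC cells, at 8.51, 8.56 and 8.34 in GFP-positive and at 8.15, 8.26 and 8.72 in GFP-negative IgG1 GC cells. Every GC array was above every naive array. The rise was 1.42 (SE 0.25, adjusted p = 0.000493) in IgE GC cells, which is 2.68-fold. In IgG1 GC cells with and without GFP it was 1.17 (adjusted p = 0.00273) and 1.08 (adjusted p = 0.00469).

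Tgfbr2, the ligand-binding type II receptor, was at 8.46, 9.39 and 9.05 in naive cells and between 8.28 and 8.71 over the 9 GC arrays. The naive array at 8.46 was replicate 1, which stood apart. Its differences of -0.56, -0.49 and -0.40 (IgE, GFP-positive IgG1 and GFP-negative IgG1 GC cells) were not called, with adjusted p of 0.077, 0.126 and 0.183. Without naive replicate 1 they were -0.81, -0.75 and -0.65, with adjusted p of 0.00979, 0.0173 and 0.0331, and they were called after quantile normalization too (-0.83, -0.72 and -0.68).

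Smad2 was at 6.93, 7.44 and 7.64 in naive cells, at 7.89, 8.20 and 8.35 in GFP-negative IgG1 GC cells, at 8.0, 7.94 and 7.89 in IgE GC cells and at 8.04, 8.11 and 7.10 in GFP-positive IgG1 GC cells. Only GFP-positive replicate 3, the other array that stood apart, lay within the naive range. Smad2 rose by 0.81 in GFP-negative IgG1 GC cells (SE 0.25, adjusted p = 0.0215), a call lost without naive replicate 1 (0.61, adjusted p = 0.0989), without GFP-negative replicate 2 or 3, after quantile normalization or in a fit of the compared groups alone. Its difference was 0.61 in IgE GC cells (adjusted p = 0.0765) and 0.42 in GFP-positive IgG1 GC cells (adjusted p = 0.242). Without GFP-positive replicate 3 the latter was 0.74 (adjusted p = 0.0215). Smad3 was not called in these comparisons, with differences of -0.25, -0.24 and -0.11.

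Smad1, a SMAD of the BMP branch, was at 4.96, 5.75 and 5.77 in naive cells, where 2 of the 3 arrays were above their array's median. It was at 6.62, 6.69 and 6.41 in IgE GC cells, at 6.29, 6.51 and 6.68 in GFP-positive and at 6.34, 6.55 and 6.98 in GFP-negative IgG1 GC cells, with no overlap. It rose by 1.08 in IgE GC cells (SE 0.25, adjusted p = 0.00396), by 1.00 in GFP-positive (adjusted p = 0.00756) and by 1.13 in GFP-negative IgG1 GC cells (adjusted p = 0.00305). Without both arrays that stood apart, the GFP-positive value was 0.63 (adjusted p = 0.102), so that call rested on them.

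Smad5, the other BMP-branch SMAD, was at 6.30 to 6.58 in naive cells and at 6.65 to 7.29 in GC cells, again without overlap. Its differences of 0.52, 0.53 and 0.43 were not called (adjusted p = 0.061, 0.0623 and 0.106). Single arrays decided that: the first was called without IgE GC replicate 1 (0.66, adjusted p = 0.037) and the second without GFP-positive replicate 3 (0.70, adjusted p = 0.0205).

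Smad4, the shared partner, was not called, with differences of 0.17, 0.24 and 0.25, the first and last of which were below 0 after quantile normalization. Smad7, the inhibitor induced by TGF-beta itself, was not called either (-0.35, -0.29 and -0.16), and naive replicate 1, at 7.65 against 6.48 and 6.58, set its sign: without that array the differences were 0.02, 0.08 and 0.21. Ski, the SMAD co-repressor, was at 6.19, 6.32 and 6.26 in naive cells and at no more than 5.89 on any GC array. It fell by 0.62 in IgE (adjusted p = 0.00468), by 0.76 in GFP-positive IgG1 (adjusted p = 0.00118) and by 0.77 in GFP-negative IgG1 GC cells (adjusted p = 0.000941). In a fit of IgE GC and naive arrays alone, the IgE call was lost (adjusted p = 0.0678). Ski on the GC arrays, at 5.42 to 5.89, lay close to the array medians of 5.28 to 5.47, where differences are compressed.

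Some markers of other cells were also higher in the naive sort. The summed linear signal of 9 macrophage and dendritic cell markers was 538 to 946 in naive cells and 273 to 374 over the GC arrays, and 2 of the 4 tested were lower in each GC group (Tyrobp at 8.43 in naive cells against 5.42 to 5.79, Siglech at 6.70 against 4.77 to 5.00), while Lyz2 and Csf1r lay at 4.13 to 4.86 in all of these groups and Cd68 ran the other way, at 6.08 in naive cells against 6.77 to 7.21. The sum of 7 stromal and endothelial markers was 856 to 1603 in naive cells and 334 to 541 in GC cells, and it followed Pecam1 (9.56 in naive cells against 7.18 to 7.87), while Cdh5 was at 4.83 against 4.96 to 5.12 and Col1a1 at 6.40 against 5.99 to 6.19. The sum of 5 NK cell markers was 136 to 171 in naive cells and 82 to 103 over the GC arrays. The sums of 7 T cell markers overlapped, at 355 to 474 against 232 to 409. Of 6 T cell markers tested, 2 were lower in IgE, 4 in GFP-positive IgG1 and 2 in GFP-negative IgG1 GC cells. Cd8a was at 6.06 against 5.16 to 5.34, while Cd3e was at 6.82 against 6.46 to 6.90. The part of all these markers in the differences from naive cells was not tested. In sorted bulk samples, fewer cells of a type and less RNA per cell cannot be told apart.

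**Figure D2:**
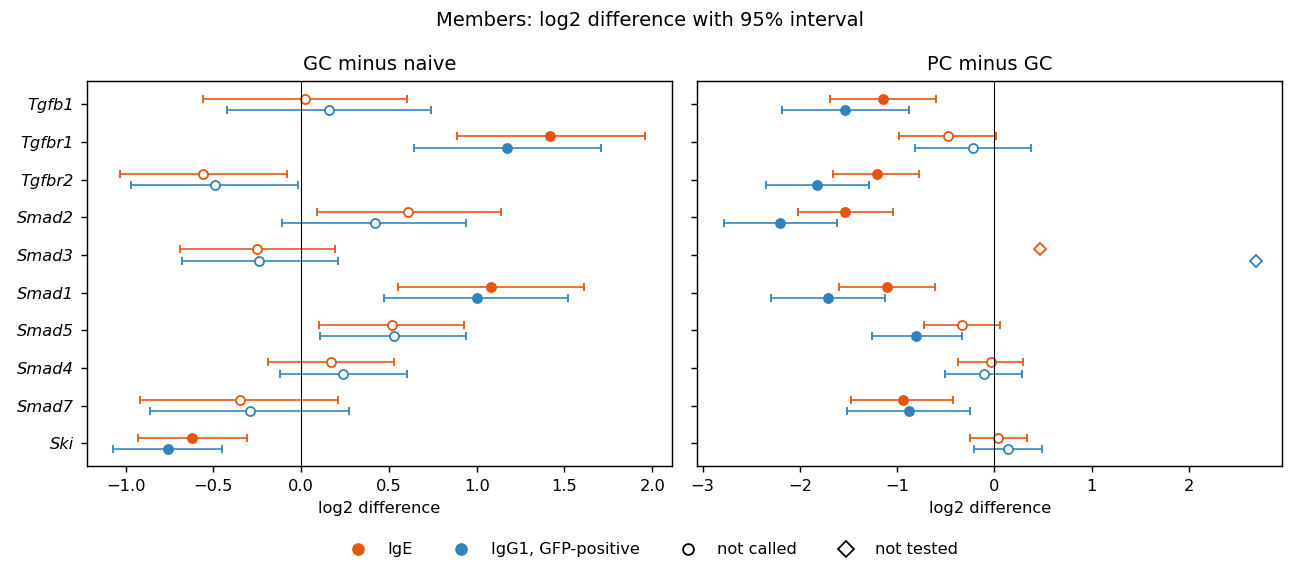
Log2 difference of each member (horizontal axis) in GC minus naive cells (left) and PC minus GC cells of the same isotype (right), with 95% intervals; orange, IgE; blue, GFP-positive IgG1; filled circles passed the test, open circles did not, and diamonds (Smad3 in PC) were not tested. On the left Tgfbr1, Smad1 and Ski passed the test in both. The unadjusted intervals of Smad5 and Tgfbr2 also leave out 0 in both, but these genes did not pass. On the right Tgfb1, Tgfbr2, Smad2, Smad1 and Smad7 passed below 0 in both, and Smad3 lies above 0 at 0.47 and 2.69.

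Tgfb1, Tgfbr2, Smad1, Smad2 and Smad7 were lower in PC than in GC cells of the same isotype in both isotypes, and Smad5 in IgG1 as well, while Tgfbr1, Smad4 and Ski were not called in either. Of the 9 members tested in IgE PC against IgE GC cells, 5 were lower and none higher, beside 23.6% of all genes called (10.2% higher, 13.4% lower). In IgG1 PC against GFP-positive IgG1 GC cells 6 of 9 were lower and none higher, beside 21.4% of genes (8.32% higher, 13.1% lower), and without IgG1 PC replicate 2 the count was 3. The median difference of the 9 was -0.94 in IgE and -0.88 in IgG1, beside -0.03 and -0.01 over all 12098 genes. These comparisons share no arrays, and whether the fall differed between the isotypes was not tested, since it turns on the plasma cell arrays that chose the list.

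Tgfb1 was at 8.01, 7.71, 7.72 and 7.24 in IgE PC against 9.02, 8.76 and 8.66 in IgE GC cells. The difference was -1.14 (SE 0.26, adjusted p = 0.00303), 2.21-fold, with no overlap. In IgG1 the PC arrays stood far from each other, at 8.06 and 6.81, against 9.12, 8.86 and 8.91 in GC cells. The difference was -1.53 (adjusted p = 0.00152), and without IgG1 PC replicate 2 it was -0.90 (adjusted p = 0.0522), so the size and the call rested on that array.

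Tgfbr2 fell in both isotypes with no overlap. It was at 7.50, 6.90, 6.92 and 7.47 in IgE PC against 8.51, 8.28 and 8.44 in IgE GC cells (difference -1.21, SE 0.21, adjusted p = 0.000334, 2.32-fold). It was at 6.74 and 6.57 in IgG1 PC against 8.64, 8.44 and 8.33 in GFP-positive IgG1 GC cells (difference -1.82, SE 0.25, adjusted p = 4.67e-05, 3.53-fold).

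Tgfbr1, in contrast, kept a broad range in PC, at 8.81, 7.92, 7.84 and 8.39 in IgE PC and at 7.91 and 8.59 in IgG1 PC. It overlapped its GC level in both. The differences were -0.48 in IgE (95% interval -0.98 to 0.02, adjusted p = 0.168) and -0.22 in IgG1 (-0.82 to 0.38, adjusted p = 0.646). The Tgfbr2 estimates lie outside these intervals, but in IgE the Tgfbr2 interval (-1.66 to -0.77) overlaps that of Tgfbr1. The receptor genes were not tested against each other. Without IgE PC replicate 1, the array at 8.81, the IgE difference of Tgfbr1 was -0.68 and called (adjusted p = 0.0411).

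Smad2 fell further from its GC level than any other member, in both isotypes. It was at 6.47, 6.62, 6.51 and 6.08 in IgE PC (difference -1.53, SE 0.23, adjusted p = 8.92e-05, 2.88-fold) and at 5.56 and 5.54 in IgG1 PC (difference -2.20, SE 0.28, adjusted p = 1.75e-05, 4.59-fold). The 2 receptor SMADs of the TGF-beta branch therefore lay on opposite sides of their GC level in IgG1 PC, Smad2 below and Smad3 above. Smad2 in IgG1 PC was close to the array medians of 5.28 to 5.47.

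Smad1 was at 5.00, 5.92, 5.49 and 5.48 in IgE PC and at 4.67 and 4.90 in IgG1 PC. It fell by 1.10 in IgE (adjusted p = 0.00192) and by 1.71 in IgG1 (adjusted p = 0.000244). Both IgG1 PC arrays and 1 of the 4 IgE PC arrays were below their array's median for Smad1, near the floor of the signal, where differences are compressed. Smad5, at 6.31 to 6.87 in IgE PC and at 6.24 and 6.16 in IgG1 PC, had a difference of -0.33 in IgE (adjusted p = 0.241) and fell by 0.80 in IgG1 (adjusted p = 0.0147). The Smad5 call in IgG1 was lost on leaving out GFP-positive GC replicate 1 or 2 or either PC array (adjusted p = 0.0564 to 0.0853), and in a fit of the compared groups alone (0.0653).

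Smad4 lay at 7.80 to 8.29 in IgE PC and at 8.02 and 7.99 in IgG1 PC, with differences of -0.03 (95% interval -0.37 to 0.30) and -0.11 (-0.51 to 0.29). Smad7 was at 5.46, 5.78, 5.16 and 6.02 in IgE PC against 6.71, 6.60 and 6.35 in IgE GC cells, a difference of -0.94 (SE 0.25, adjusted p = 0.00999). For Smad7, 3 of the 4 IgE PC arrays were above their array's median. In IgG1 PC Smad7 was at 5.72 and 5.75, and its fall of 0.88 (adjusted p = 0.0448) was not called on leaving out any of the 5 arrays compared (adjusted p = 0.0671 to 0.154), with no filter on low values (0.0586) or after quantile normalization (0.0969). Ski was at 5.47 to 5.79 in IgE PC and at 5.68 and 5.59 in IgG1 PC, with differences of 0.04 and 0.14 from GC cells that were not called. These Ski levels were close to the array medians as well.

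T cell markers moved with the plasma cell groups as a sum, at 756 to 1024 in IgE PC and 1345 to 1391 in IgG1 PC against 232 to 409 over the GC arrays, and a single gene carried it. Cd28 was at 9.36 in IgE PC and 10.03 in IgG1 PC, while Cd3e was at 6.37 and 7.16 against 6.46 to 6.90 in GC cells and Cd4 at 5.05 and 5.08 against 4.74 to 5.29. The macrophage and dendritic cell sum was 549 to 721 in IgE PC and 318 and 639 in IgG1 PC. Cd68 was at 8.68 in IgE PC and 7.70 in IgG1 PC against 6.77 to 7.21 in GC cells, while Tyrobp was at 6.0 and 5.49, Csf1r at 4.57 and 4.52 and Siglech at 4.89 and 5.09. The sum of 5 NK cell markers was 113 and 254 in IgG1 PC and 109 to 131 in IgE PC, against 82 to 103 over the GC arrays. Of these, 1 was tested. It was called higher in IgG1 PC than in GFP-positive IgG1 GC cells and was not called in IgE PC against IgE GC cells. The part of all these markers in the plasma cell differences was not tested.

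Against naive cells, the comparison shares its arrays with those above, and the values are given side by side. In IgE PC, 6 of 9 members were called, 1 higher and 5 lower, beside 37.0% of genes (23.0% higher, 14.1% lower). In IgG1 PC, 6 of 9 were called, 1 higher and 5 lower, beside 29.3% (17.1% higher, 12.2% lower). Tgfbr1 was the member that was higher, by 0.94 in IgE PC (adjusted p = 0.00472) and 0.95 in IgG1 PC (adjusted p = 0.0172). The latter was 0.61 without IgG1 PC replicate 2 (adjusted p = 0.235), and the call was also lost without both arrays that stood apart.

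The members lower than in naive cells were the same 5 in both plasma cell groups, Tgfb1, Tgfbr2, Smad2, Smad7 and Ski. Tgfbr2 had differences of -1.77 in IgE PC (adjusted p = 3.98e-06) and -2.31 in IgG1 PC (adjusted p = 2.14e-06). Smad2 had -0.92 and -1.78, Smad7 -1.30 and -1.17, Tgfb1 -1.13 and -1.36, and Ski -0.58 and -0.62. Without IgG1 PC replicate 2 the IgG1 calls for Tgfb1 (-0.74, adjusted p = 0.0992) and Ski (-0.57, adjusted p = 0.0677) were lost. In a fit of IgG1 PC and naive arrays alone, only the Smad2 and Tgfbr2 calls were kept. Smad1 did not pass in either (-0.02 and -0.71); in IgG1 PC it was called once naive replicate 1 was left out (-0.98, adjusted p = 0.00961). Smad5 (0.19 and -0.27) and Smad4 (0.14 and 0.13) were not called, and Smad3 was at 0.22 and 2.45.

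Over the 6 groups, the members thus had a few distinct orders of level. Smad2 and Tgfbr2 ran from GC or naive cells down through IgE PC to IgG1 PC. For Tgfbr2 the gap between the plasma cell groups was small (6.90 against 6.74). Smad1 had the GC groups on top without separation between them and naive cells and IgE PC overlapping in the middle. IgG1 PC was lowest for Smad1, with its highest array at 4.90 against 5.00 for the lowest IgE PC array. Tgfb1 and Smad7 separated PC from all other groups and did not separate the plasma cell groups from each other. Tgfbr1 separated naive cells from the other 5 groups and Ski did the same in the opposite direction. Smad4 overlapped between all neighbouring groups, with group means from 7.88 to 8.13.

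Neither isotype nor GFP status gave a called gene among GC cells. Between IgE and GFP-positive IgG1 GC cells, 0 of 10 members and 0 of 12098 genes (0%) were called by limma, with 264 genes at an unadjusted p under 0.05. The largest difference among the members was 0.25 for Tgfbr1 (95% interval -0.28 to 0.79), and Smad3 differed by -0.01 (-0.45 to 0.43). Between IgG1 GC cells with and without GFP, which asks about the Cepsilon rearrangement on the other chromosome, 0 members and 0 genes (0%) were called, with 265 genes at an unadjusted p under 0.05. The largest member difference there was -0.40 for Smad2 (-0.92 to 0.13), the gene whose GFP-positive replicate 3 lay low. A miss at 3 arrays against 3 does not show equal levels.

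**Figure D3:**
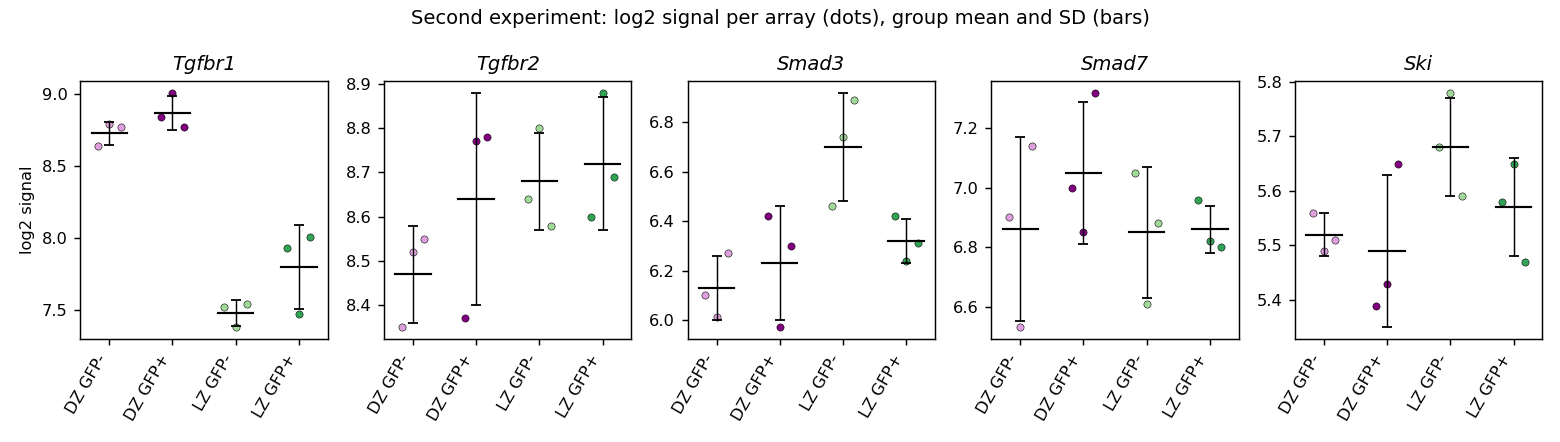
Log2 signal (vertical axis) of 5 members in the 4 groups of the second experiment (horizontal axis), 1 dot per array, mean as a line and SD as bars; DZ, dark zone; LZ, light zone. Every DZ array of Tgfbr1 (8.64 to 9.01) is above every LZ array (7.38 to 8.01), while the other panels overlap between zones in at least the GFP-positive cells.

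Within the IgG1 germinal centre, Tgfbr1 was the member that differed between the zones. The DZ is where GC cells divide and mutate and the LZ where they are selected by antigen and T cell help. Tgfbr1 was at 8.84, 9.01 and 8.77 in GFP-positive DZ cells and at 8.64, 8.79 and 8.77 in GFP-negative DZ cells. It was at 7.93, 7.47 and 8.01 in GFP-positive LZ cells and at 7.52, 7.38 and 7.54 in GFP-negative LZ cells, below every DZ array. The DZ level was higher by 1.16 (SE 0.11, adjusted p = 0.000142), 2.24-fold, with 1.07 within GFP-positive and 1.25 within GFP-negative cells. The call held on leaving out each array in turn. Of 10 members 1 was called, higher in the DZ, beside 6.91% of the 11050 genes tested (3.92% higher, 3.00% lower), and the split of all calls, 433 higher and 331 lower, was 356 and 410 after a further quantile normalization.

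Smad3 was the member next in size. It was at 6.46, 6.74 and 6.89 in GFP-negative LZ cells against 6.10, 6.01 and 6.27 in GFP-negative DZ cells, without overlap. In GFP-positive cells it was at 6.42, 6.24 and 6.31 in the LZ and at 6.42, 5.97 and 6.30 in the DZ, with overlap. The DZ minus LZ difference was -0.33 over both (SE 0.11, adjusted p = 0.102), -0.57 in GFP-negative and -0.09 in GFP-positive cells. The difference between those, 0.48 (SE 0.23), was not called (adjusted p = 0.986).

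The other 8 members differed between the zones by -0.14 to 0.19 and were not called. Tgfbr2, at 8.37 to 8.78 in the DZ and 8.58 to 8.88 in the LZ, had -0.14 (95% interval -0.37 to 0.09). A rise of the size seen for Tgfbr1 lies outside that interval, though the receptor genes were not tested against each other. Ski had -0.12 and Smad7 0.10. GFP status in the zones called 0 of 10 members and 0 of 11050 genes (0%), with 519 genes at an unadjusted p under 0.05, and its largest member difference was 0.23 for Tgfbr1 (-0.01 to 0.47). The test of whether the zone difference depends on GFP status called 0 genes (0%), with 543 at an unadjusted p under 0.05, and for Tgfbr1 this interaction was -0.19 (-0.66 to 0.29).

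The other genes of the pathway were followed in a list of 70, of which 68 were measured. The first experiment tested 41 of them and the second 39. Those called with a log2 difference of at least 1, at most 6 per comparison, are named. A gene named for 1 isotype is therefore not shown to be unchanged in the other. Against naive cells, 6 were higher and 4 lower in IgE GC cells, beside 19.3% and 7.40% of all genes. In GFP-positive IgG1 GC cells the counts were 5 and 3, beside 16.8% and 6.43%. In GFP-negative IgG1 GC cells they were 7 and 4, beside 20.5% and 9.35%. The counts are near what these shares give for any 41 genes. The median over the list was -0.04, -0.03 and 0.05.

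Of the 8 ligand and activation genes tested, 1 was higher and 3 were lower in IgE GC cells, beside 19.3% and 7.40% of all genes. The counts were 1 and 2 in GFP-positive IgG1 GC cells (16.8% and 6.43%). They were 1 and 3 in GFP-negative IgG1 GC cells (20.5% and 9.35%). With 8 genes these counts are a description. Lrrc32, which encodes GARP and anchors latent TGF-beta on the membrane, was higher by 1.28 in IgE (adjusted p = 0.000649), 1.85 in GFP-positive IgG1 and 2.13 in GFP-negative IgG1 GC cells. Nrros, whose product also binds latent TGF-beta1, had differences of -2.43 (adjusted p = 1.44e-06), -2.20 and -2.19. The ligand gene Gdf11, which signals through SMAD2 and SMAD3, had -1.95, -2.08 and -1.79.

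Downstream, Fkbp1a, whose product FKBP12 holds the type I receptor inactive, was higher by 1.35, 1.23 and 1.36 in the 3 GC groups (adjusted p = 0.000125, 0.000309 and 0.000119). Gadd45b, a TGF-beta-inducible stress gene that many other signals induce as well, was higher by 2.59, 2.82 and 2.46. Trim33, a SMAD partner and ubiquitin ligase, rose by 1.01 in IgE (adjusted p = 0.000731), by 0.74 in GFP-positive IgG1 (adjusted p = 0.00779) and by 1.08 in GFP-negative IgG1 GC cells (adjusted p = 0.000439). Bhlhe40, a transcriptional repressor, had -1.36 in IgE GC cells (adjusted p = 0.00325). Of the 4 further receptor genes tested, only the co-receptor gene Tgfbr3 was called, lower in GFP-negative IgG1 GC cells (-0.58, adjusted p = 0.0253), and it is named after its values were seen.

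From GC to plasma cells, 10 of the 41 further genes tested were lower and 3 higher in IgE, beside 13.4% and 10.2% of all genes, and 9 were lower and 1 higher in IgG1, beside 13.1% and 8.32%. The median over the list was -0.10 in IgE and -0.08 in IgG1. Id3, a target of BMP and TGF-beta SMADs that blocks E proteins, had the largest differences, -3.83 in IgE (adjusted p = 1.68e-08) and -3.74 in IgG1 (adjusted p = 2.21e-07). Lrrc32 had -1.55 and -2.38, the SMAD2 co-repressor gene Tgif1 -1.44 and -1.75, and Nedd4l, a ubiquitin ligase gene for activated SMADs, -1.37 and -1.14. Klf10, an early TGF-beta target, had -1.12 in IgE, and Smurf2 and Bhlhe40 had -1.49 and -1.26 in IgG1. Nrros was the named gene that was higher, by 1.35 in IgE PC (adjusted p = 0.000284). Furin, which cleaves the TGF-beta precursor, was higher in both, by 0.82 (adjusted p = 0.00103) and 0.87 (adjusted p = 0.00326), and the ligand gene Nodal in IgE by 0.83, both named after their values were seen. In IgG1, leaving out PC replicate 2 ended the calls of Tgif1 (adjusted p = 0.0676), Smurf2 (0.0802) and Bhlhe40 (0.0747), and leaving out PC replicate 1 those of Nedd4l (0.0553) and Bhlhe40 (0.0552). With the mean of all probe sets of the gene, Smurf2 had -0.95 in IgG1 and was not called (adjusted p = 0.233).

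Against naive cells, 6 of the 41 further genes were higher and 14 lower in IgE PC, beside 23.0% and 14.1% of all genes. In IgG1 PC 5 were higher and 10 lower, beside 17.1% and 12.2%. Id3 had -3.63 and -3.47, Gdf11 -2.64 and -2.45, Tgif1 -1.40 and -1.66, and Gadd45b 2.04 and 2.61. Nedd4l and Bhlhe40 had -1.31 and -1.17 in IgE PC, and the ubiquitin ligase genes Smurf1 and Smurf2, which target SMADs and receptors, had -1.66 and -1.69 in IgG1 PC. With the mean of all probe sets of the gene, Smurf2 was at -0.85 in IgG1 PC against naive cells and was not called (adjusted p = 0.261). Without IgG1 PC replicate 2, Tgif1 was at -1.46 in that comparison and was not called (adjusted p = 0.0713).

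Between the zones, 1 of the 39 further genes tested was higher in the DZ and 4 were lower, beside 3.92% and 3.00% of all genes, and none reached a difference of 1. They are named here after their values were seen: Ldlrad4, an inhibitor of TGF-beta signalling, was higher by 0.51 (adjusted p = 0.00982), and Bhlhe40 (-0.86), Gdf11 (-0.68), Junb (-0.59) and Nrros (-0.54) were lower. None of the further genes was called between isotypes or by GFP status among GC cells, or by GFP status in the zones.

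**Figure D4:**
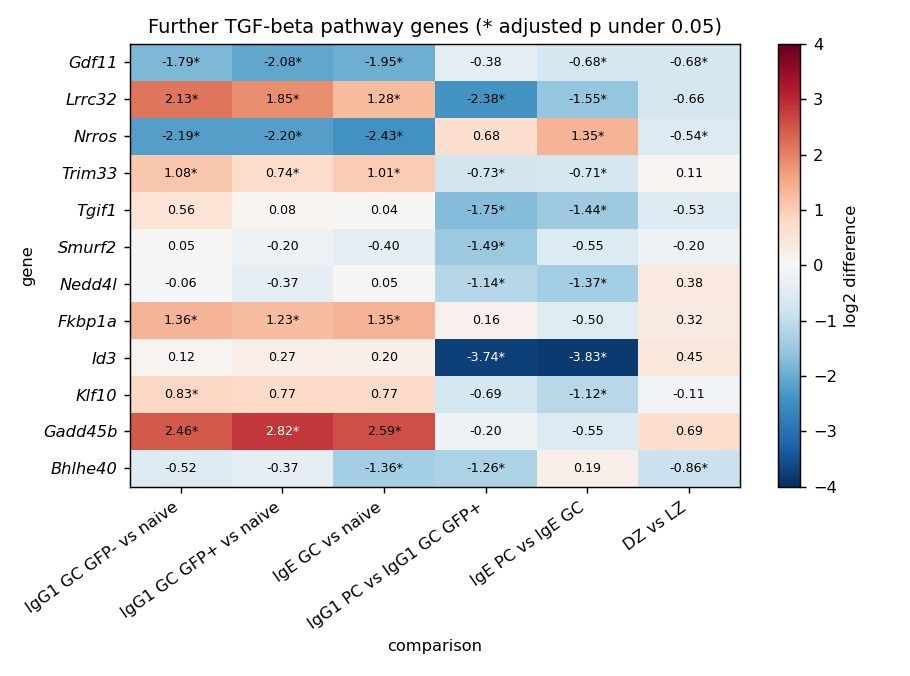
Log2 difference (colour and number) of the 12 further pathway genes named for GC or PC cells in 6 comparisons (columns), with an asterisk where the adjusted p was under 0.05. Id3, at -3.74 and -3.83, has the strongest colour in the plasma cell columns, and Gadd45b, Lrrc32, Nrros and Gdf11 in the naive columns.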

How the data were processed

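Sorted B cell RNA (2 ng) was amplified and hybridised to Affymetrix Mouse Gene ST arrays, per the labels' protocols. The authors deposited log2 values; per the submitters' processing notes these came from RMA, with R 2.15.2. Joint normalization of the experiments is not stated, and levels were compared only within each. Array medians were 5.28 to 5.47, values near the floor compress differences, and the number of arrays limits the precision. Amplification from 2 ng and the pooling of 3 mice per array enter the spread between arrays.

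Of 34760 probe sets, 21640 had 1 gene symbol in the platform annotation, 1321 several and 11799 none, and only the first were used. Each of 19937 genes was taken at its probe set with the highest mean. Genes above the array median on at least 2 (first experiment) or 3 arrays (second) were tested, 12098 and 11050. All groups of an experiment entered a single limma 3.58.1 fit (lmFit, eBayes; R 4.3.3), with Benjamini-Hochberg adjustment over all genes tested and calls at an adjusted p under 0.05. The script was tested on simulated data. Figures used matplotlib 3.10.9. Levels carry the SD over arrays, and differences the SE of the fit.

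The members, the pathway list and the marker lists were chosen with earlier results of these data known. All members are named, the further pathway genes if called with a log2 difference of at least 1 (at most 6 per comparison), and the 5 genes most correlated with Smad3. Alternatives were no filter, quantile normalization, only the groups compared, the replicate number as a block, the mean of probe sets, a trended robust prior, each array left out, and both arrays that stood apart left out. Arrays were taken as paired where every same-numbered pair's deviations correlated at over 0.1 with at least 3 pairs. GFP-positive and GFP-negative GC cells met this (r = 0.15, 0.11 and 0.12), and there the blocked fit also called 0 genes.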

Additional observations from a re-analysis of the deposited data

How the results depend on the processing

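Of 1605 tested gene values recomputed under an alternative, 1524 kept their direction and their side of the threshold, 38 lost the call, 16 gained it and 27 reversed. Of 141 recomputed values given as descriptions, 9 turned sign, all in IgE PC against IgG1 PC: Tgfb1 (from -0.39 to 0.86), Tgfbr1 (-0.35 to 0.33), Smad7 (-0.26 to 0.02), Smad4 (-0.09 to 0.08) and Ski (-0.01 to 0.11). The cause of changes was not tested. In a fit of the compared groups alone, which uses fewer arrays for the spread, genes called went to 2049 (IgE GC against naive), 1524 (GFP-positive IgG1 GC), 2070 (GFP-negative IgG1 GC), 1678 (IgG1 PC against naive, with 2 members called) and 1 (GFP-positive against GFP-negative GC), from 3230, 2813, 3606, 3540 and 0. The replicate block changed no call of a gene the text names: 3268, 2817 and 3579 genes were called in IgE, GFP-positive and GFP-negative GC against naive, and the members called were 3, 3 and 4. Pairing was not given by the labels.

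Leaving out 1 array at a time gave 3 to 5 members called in GFP-positive IgG1 GC against naive, 3 to 5 in IgG1 PC against IgG1 GC, 3 to 7 in IgG1 PC against naive, and 479 to 815 genes called in DZ against LZ (479 without GFP-positive LZ replicate 2). It turned the sign of some differences, none of which was called in the main fit. The largest of these in size was -0.35, for Smad7 in IgE GC against naive cells. Against naive, IgE GC had Smad7 from -0.57 to 0.02 and Tgfb1 from -0.16 to 0.18, GFP-positive IgG1 GC Smad7 from -0.51 to 0.08 and Tgfb1 from -0.01 to 0.33, and GFP-negative IgG1 GC Smad7 from -0.37 to 0.21 and Tgfb1 from -0.03 to 0.30. IgE PC against naive had Smad1 from -0.29 to 0.13 and Smad4 from -0.02 to 0.27, and IgG1 PC Smad4 from -0.03 to 0.26. Against GC cells, IgE PC had Smad4 from -0.12 to 0.04 and Ski from -0.05 to 0.17, and IgG1 PC Tgfbr1 from -0.56 to 0.12.

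Quantile normalization reversed Smad4 against naive (-0.09 in IgE GC, -0.02 in GFP-negative IgG1 GC, -0.11 in IgE PC, -0.02 in IgG1 PC), Tgfb1 (-0.25 in IgE, -0.05 in GFP-positive and -0.14 in GFP-negative IgG1 GC) and Smad1 (0.09 in IgE PC). Without both arrays that stood apart Smad7 was 0.02 in IgE GC and 0.21 in GFP-negative IgG1 GC against naive.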

Other observations

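The genes whose level most resembled that of Smad3 over the 18 arrays of the first experiment were Cd9, a tetraspanin gene (Pearson r = 0.90), Ifitm3, an interferon-induced gene (0.86), 1810062G17Rik (0.85), Spn, which encodes the sialoglycoprotein CD43 (0.84), and Tmtc1 (0.84). All 5 were higher in IgG1 PC than in IgE PC in mean log2 signal: Cd9 at 6.08 and 4.45, Ifitm3 at 7.45 and 4.00, 1810062G17Rik at 6.19 and 5.33, Spn at 9.33 and 7.92, and Tmtc1 at 7.21 and 6.04. That follows from how they were picked, since Smad3 was high only in IgG1 PC, and it is no further result. In IgE PC, GFP-positive IgG1 GC and naive cells, the means of Cd9 (4.14 to 4.46) and Ifitm3 (4.00 to 4.49) lay below the array medians of 5.28 to 5.47. These correlations are descriptions over arrays that fall into separate groups, and the 2 IgG1 PC arrays carry much of them. Over the other 16 arrays r was 0.59, -0.36, 0.66, 0.65 and 0.77, and over the 12 arrays of the second experiment it was between -0.40 and 0.06.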
